A study of Mus musculus with 36 samples.

Results

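Most miRNA hairpins give a pair of mature strands, one from the 5′ arm (named -5p) and one from the 3′ arm (named -3p), and the subject here is the less abundant strand of each pair bound to Ago2 in mouse colonic tumours. Of 596 mature miRNAs listed, 549 carried an arm name, and 140 hairpins had both arms listed. The arms were chosen by their mean level in these libraries: the 72 hairpins whose arms together averaged at least 200 normalised counts over 12 tumours were kept, and the arm with the lower mean of each was taken. This gave 30 arms of the 5p kind and 42 of the 3p kind. That they lie below their partners is therefore a description and not a finding. The last pair kept was miR-29c, with a summed mean of 202 normalised counts, after miR-126a with 209, and the first pairs left out were miR-99a with 157 and miR-700 with 155.

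All tumours came from C57BL/6 mice that carried Halo-Ago2/+ (Ago2 fused to a tag that a resin captures), Villin-CreER/+ (a Cre recombinase under a promoter of the gut epithelium, made active by 4-hydroxytamoxifen) and Apc(fl/fl), a tumour suppressor gene that Cre removes. The 6 G12D tumours carried K-Ras-G12D/+ in addition, an active form of K-Ras, and the 6 WT tumours expressed wild-type K-Ras. An enema of 200 µl of 4-hydroxytamoxifen at 5 mg/ml was given at 8 to 12 weeks of age, moribund animals were sacrificed, and tumour lawns were cut or scraped from the colon, so tissue other than epithelium can be included. Tissue was crosslinked with UV light at 400 mJ/cm2, 3 times, and Ago2 was captured with its RNA (Halo-enhanced Ago2 pulldown); the 12 libraries of bound miRNA are used here. In each genotype, tumours 1 to 3 are labelled batch 1 and tumours 4 to 6 batch 2, and the labels do not say what a batch shares.

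A miRNA gene is transcribed as a hairpin, which Drosha and Dicer cut to a short duplex of both arms. One strand is kept in the Argonaute protein as the guide and the other, the passenger, is usually discarded, with the choice known to depend on the stability of the duplex ends and on the first base of each strand. The kept strand finds its targets mainly by its seed, bases 2 to 8, so the arms of 1 hairpin have different targets. Some passenger strands are loaded often enough to act as guides themselves.

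The libraries held 289462 to 471587 recovered miRNA reads, and 1 read was worth 0.712 to 1.55 normalised counts. Whether each tumour number is a separate mouse is not stated in the labels, so the p-values reflect how far the numbered samples differ, which may in part be technical. Epithelial markers fitted the labelled tissue: all 9 gut epithelial hairpins were listed, with summed levels of 68988 to 108468 normalised counts in G12D tumours and 71522 to 97116 in WT tumours. Hairpins of smooth muscle and fibroblasts summed to 371 to 819 in G12D tumours and 403 to 1836 in WT tumours, with miR-133b not listed and miR-1a-3p at 0 in 2 libraries. The hairpins counted as endothelial, miR-126a and miR-139, summed to 410.2 to 885 in G12D tumours and 469 to 867 in WT tumours. Those of blood cells summed to 4304 to 6081 in G12D tumours and 6322 to 8767 in WT tumours, with miR-486a not listed. Of the blood cell arms only miR-146a-5p and miR-146b-5p, with means of 1446 and 3115, were called between genotypes. miR-142a-3p, with a mean of 1296, stood 0.44 higher in G12D tumours on the log2 scale (adjusted p = 0.553, limma).

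The most abundant lower arms belonged to the miR-200 family, which maintains the epithelial state by repressing Zeb1 and Zeb2. RefSeq (GRCm38.p6) gives a mature sequence for 64 of the 72 lower arms and for 61 of their partners. The 3 lower arms are shown because miR-200a-5p and miR-200b-5p share their seed, written in capitals, while that of miR-141-5p differs.
miR-200a-5p: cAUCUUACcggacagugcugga
miR-200b-5p: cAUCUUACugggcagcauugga
miR-141-5p: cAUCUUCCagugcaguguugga

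The next set is shown because its arms came closest to, or passed above, their partners. Lower and higher arm are given where the table holds both.
miR-139-5p: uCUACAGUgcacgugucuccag
miR-139-3p: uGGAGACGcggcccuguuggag
let-7d-3p: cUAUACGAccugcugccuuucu
let-7d-5p: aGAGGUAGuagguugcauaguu
miR-423-5p: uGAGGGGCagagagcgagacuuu
miR-423-3p: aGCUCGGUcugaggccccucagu
miR-140-3p: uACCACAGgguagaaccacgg
miR-126a-3p: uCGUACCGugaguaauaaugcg

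The third set holds arms with some of the larger differences between genotypes or batches, each with its seed in capitals.
miR-148a-5p: aAAGUUCUgagacacuccgacu
miR-148a-3p: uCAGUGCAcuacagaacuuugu
miR-17-3p: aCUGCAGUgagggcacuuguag
miR-17-5p: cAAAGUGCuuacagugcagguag
miR-106b-3p: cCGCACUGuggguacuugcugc
miR-106b-5p: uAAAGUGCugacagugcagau
miR-425-3p: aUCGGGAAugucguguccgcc
miR-324-5p: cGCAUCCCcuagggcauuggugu
miR-130b-5p: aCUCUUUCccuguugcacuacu
miR-30e-3p: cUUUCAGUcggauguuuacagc

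The base composition of the lower arms and their partners, which the choice by level did not use, is given as a description. Among the 64 lower arms with a sequence, 10 (15.6%) began with U, 24 (37.5%) with A, 22 (34.4%) with C and 8 with G. Among the 61 partners, 36 (59.0%) began with U, 12 with A, 10 with C and 3 with G. Human AGO2 is known to hold a 5′ U or A more tightly than a 5′ G or C. The median GC content was 50% in the lower arms and 43.5% in the partners, and the median length was 22 bases in both.

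The gap between the arms spanned several orders of magnitude. The lower arm took a median of 1.31% of the counts of its hairpin, with a range of 0.0145% (miR-375-5p) to 47.7% (miR-140-5p), and the higher arm exceeded it by a median of 77.5-fold. In 4 hairpins the arm means lay within 2-fold, in 17 within 10-fold, in 21 between 10-fold and 100-fold, and in 34 beyond 100-fold, of which 12 were beyond 1000-fold. Absolute levels were low: 47 lower arms averaged at least 10 normalised counts and entered the tests, 13 averaged at least 100, and 19 were at 0 in at least 1 library. The other 25 averaged under 10 normalised counts, 7 of them under 1.

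**Figure D1:**
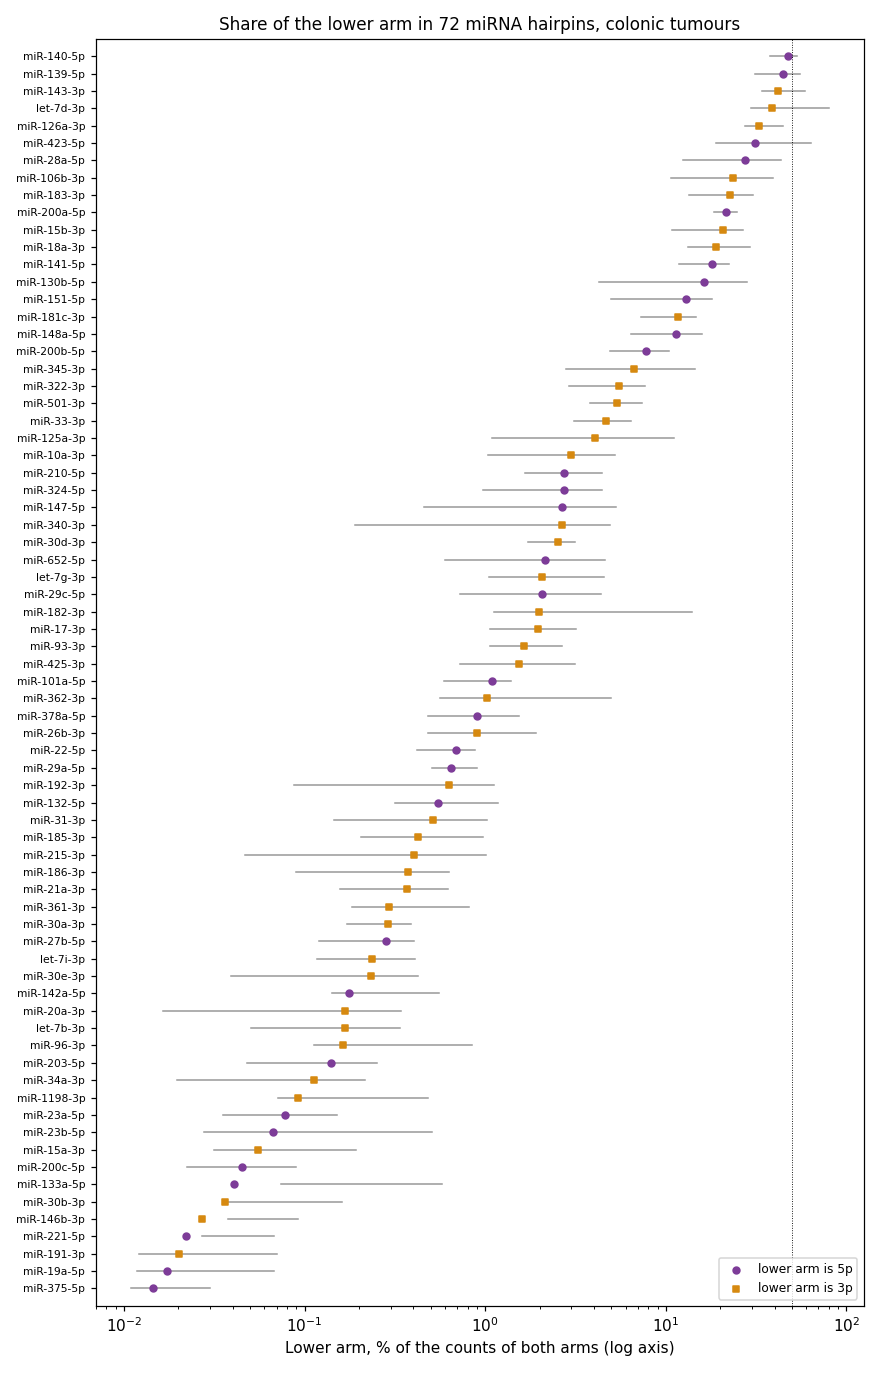
Share of the lower arm in the counts of both arms for the 72 hairpins (x axis, percent, log scale), from the means over 12 tumours (points, coloured by arm), with grey bars from the lowest to the highest tumour in which the arm was above 0. The points run from 0.0145% for miR-375-5p to 47.7% for miR-140-5p, and the dotted line marks equal arms.

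The 10 most abundant lower arms started with miR-200a-5p at 1999, miR-141-5p at 1509 and miR-140-5p at 1012 normalised counts. They were followed by miR-200b-5p at 852, miR-106b-3p at 494, miR-183-3p at 310.3, miR-18a-3p at 309, let-7d-3p at 270.3, miR-181c-3p at 262 and miR-30d-3p at 226. These values are means over 12 tumours. The 4 most abundant held 53.6% to 60.4% of all lower-arm counts in G12D tumours and 54.9% to 62.5% in WT tumours, so the class total is mostly a few epithelial arms and miR-140-5p. miR-200a-5p had a lowest, median and highest level of 1629, 2056 and 2115 in G12D tumours, against 1823, 2053 and 2156 in WT tumours. Its partner miR-200a-3p had 6160, 7255 and 9102 in G12D tumours, against 6299, 6853 and 7890 in WT tumours. Both ranges overlapped almost wholly, and the miR-200a-5p share stayed between 18.4% and 24.6% in all 12 tumours.

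At the other end, lower arms were close to or at the detection limit. miR-133a-5p, from a muscle hairpin, had 2 reads over the 12 libraries and was at 0 in 10 of them. miR-221-5p had 10 reads, miR-1198-3p 8, miR-146b-3p 9 and miR-30b-3p 10 over the 12 libraries. miR-146b-3p, the partner of an arm known from innate immune feedback, had 0 of 15778 reads of both arms in the 6 G12D libraries, which allows a share of up to 0.019%, and 9 reads in the WT libraries. miR-133a-5p had 0 of 1466 reads of both arms in G12D libraries, which allows up to 0.205%. These limits cover counting error only, because nothing shows that each read is its own molecule. For miR-375, a hairpin of enteroendocrine and islet cells, 12 reads of miR-375-5p stood against a mean of 6729 normalised counts of miR-375-3p.

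The hairpin with the closest arms was miR-140, known from cartilage. miR-140-5p had a lowest, median and highest level of 881, 960.3 and 1132 in G12D tumours, against 710.3, 1069 and 1215 in WT tumours. miR-140-3p had 902, 984 and 1208 in G12D tumours, against 1131, 1184 and 1297 in WT tumours. The levels of the arms overlapped, and miR-140-5p was the higher arm in 2 G12D tumours and 1 WT tumour, all 3 in batch 2. The ratio of the arms did not pass the test between genotypes (log2 difference 0.17 ± 0.14 SE, adjusted p = 0.636, limma).

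miR-139, counted among the endothelial hairpins here, lies within the span of the gene Pde2a, with miR-139-5p at chr7:101475382-101475403 on the plus strand (GRCm38.p6). miR-139-5p had 155, 199.8 and 236 normalised counts (lowest, median, highest) in G12D tumours, against 136, 217 and 281 in WT tumours. miR-139-3p had 163, 233 and 330.2 in G12D tumours, against 177, 258 and 384 in WT tumours. miR-139-5p was above miR-139-3p in 2 G12D and 3 WT tumours, all of them in batch 1, and below it in all 6 tumours of batch 2. Its share was 37.7% ± 4.62 in batch 2 and 52.4% ± 2.47 in batch 1 (SD, n = 6 each), without overlap.

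miR-143 is a hairpin of smooth muscle and fibroblasts, whose 3p arm is usually described as the guide. Here miR-143-3p was the lower arm by mean, with 45.9, 80.2 and 102.6 normalised counts in G12D tumours, against 34.5, 70.1 and 216 in WT tumours (lowest, median, highest). miR-143-5p had 50.4, 115 and 178 in G12D tumours, against 29.7, 101 and 324 in WT tumours. miR-143-3p was above miR-143-5p in 2 G12D and 3 WT tumours, all in batch 1. Its share was 37.3% ± 2.82 in batch 2 and 52.8% ± 6.69 in batch 1 (SD, n = 6 each). Both arms stood higher in batch 2, miR-143-3p by 1.09 ± 0.33 and miR-143-5p by 2.00 ± 0.31 on the log2 scale (± SE, adjusted p = 0.0249 and 0.000794, limma). Summed smooth muscle and fibroblast markers, of which miR-143 is one, were 598 to 1836 in batch 2 and 371 to 686 in batch 1. In such bulk samples fewer cells of a type and less RNA per cell cannot be told apart, and the part of these cells in the ratio was not tested.

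let-7d-3p comes from the let-7 family, whose 5p arms repress growth genes such as Ras, Hmga2 and Lin28. It had 199.4, 242 and 271 normalised counts in G12D tumours, against 188, 250.3 and 454 in WT tumours (lowest, median, highest). Its partner let-7d-5p had 404, 431 and 537 in G12D tumours, against 116, 447 and 563 in WT tumours. let-7d-3p was the higher arm in 2 WT tumours, WT 5 and WT 6, and in no G12D tumour. In WT 5 the share reached 79.7%, with let-7d-5p at 116, whereas the 6 G12D tumours lay between 31.4% and 38.7%. The arm means were 1.59-fold apart over 12 tumours and 1.81-fold apart without WT 5. The ratio did not pass the test between genotypes (log2 difference -0.51 ± 0.37 SE, adjusted p = 0.616, limma).

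WT 5 also set the only tumour in which miR-423-5p was above miR-423-3p. miR-423-5p had 173, 227 and 271 normalised counts in G12D tumours, against 127, 205 and 257 in WT tumours (lowest, median, highest). miR-423-3p had 429.7, 482 and 587 in G12D tumours, against 147, 497 and 616 in WT tumours, and the 147 was WT 5. The next lowest value of miR-423-3p was 312, in WT 6. The share of miR-423-5p was 31.4% over 12 tumours and 29.7% without WT 5. The arms of miR-126a, a hairpin known from endothelium and hosted by Egfl7, were slightly closer by their means, 2.04-fold apart against 2.19-fold for miR-423. Its 3p arm is usually described as the guide, and here miR-126a-3p took 32.9%, with 44.4% in the highest tumour.

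**Figure D2:**
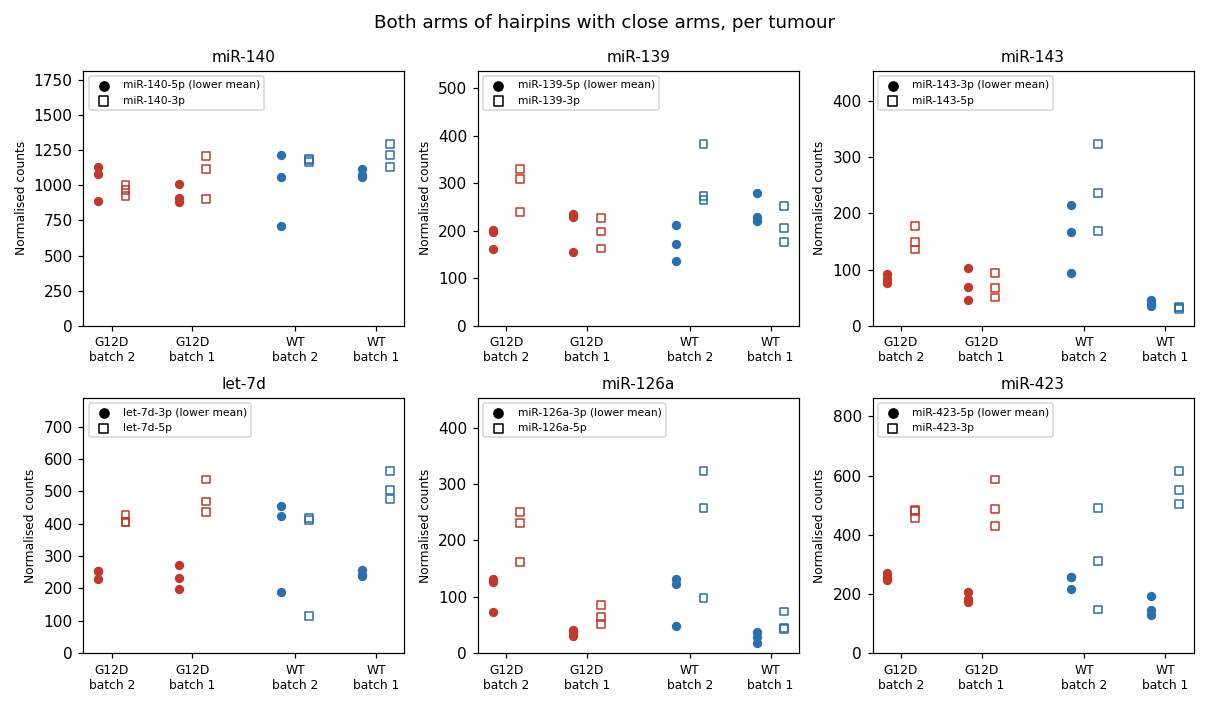
Normalised counts of both arms (y axes) in each tumour for 6 hairpins with close arms, by genotype and batch (filled circles, the arm of lower mean; open squares, its partner). For miR-139 and miR-143 the filled circles lie below the squares in all 6 tumours of batch 2. For let-7d and miR-423 the lowest square in WT batch 2 is WT 5, and for miR-423 the next lowest, at 312, is WT 6.

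Among lower arms with a mean of at least 50, the ratio of the arms varied least for miR-200a-5p, with an SD of 0.17 on the log2 scale over 12 tumours. It was followed by miR-30d-3p at 0.24, miR-140-5p at 0.25, miR-126a-3p at 0.30 and miR-501-3p at 0.36. It varied most for let-7d-3p at 0.89, miR-423-5p at 0.77, miR-345-3p and miR-106b-3p at 0.73 and miR-28a-5p at 0.72. For miR-126a both arms ranged widely, miR-126a-3p between 29.6 and 131 in G12D tumours and between 17.1 and 132 in WT tumours, while its share stayed between 27.5% and 44.4%. Over the 47 tested arms the SD of the log2 ratio had a median of 0.54 and a range of 0.17 to 1.14. It was a median of 2.48 times what the read counts alone give, and over 1.5 times in 35 of 47. Within batches the median SD was 0.39 for the ratio, 0.37 for the level of the lower arm and 0.19 for the level of its partner, and the ratio varied less than both levels in 9 of 47 arms.

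Between genotypes, the level of 1 lower arm was called. miR-148a-5p was lower in G12D tumours, with 28.6, 40.4 and 59.5 normalised counts, against 68.4, 76.6 and 90.3 in WT tumours (lowest, median, highest). The groups did not overlap. The mean was 42.4 ± 11.6 in G12D tumours and 79.3 ± 8.70 in WT tumours (SD, n = 6 each), a log2 difference of -0.92 ± 0.17 SE (adjusted p = 0.0112, limma). It stood at -0.66 in batch 2 and -1.19 in batch 1. miR-148a-5p lies at chr6:51269867-51269888 on the minus strand (GRCm38.p6), within the span of the predicted gene Gm38821.

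Of the 47 lower arms tested, 1 was called lower and none higher, against 3.87% of the 284 miRNAs tested (2.11% lower, 1.76% higher). An unadjusted p under 0.05 was reached by 4 in limma. The median log2 difference was 0.11 for the lower arms and 0.04 for all miRNAs tested. The partner miR-148a-3p, known for repressing Dnmt1 and the LDL receptor, had 343, 414 and 469 in G12D tumours, against 438, 540.2 and 668 in WT tumours (log2 difference -0.38 ± 0.13 SE, adjusted p = 0.114, limma). The arm ratio of miR-148a differed by -0.54 ± 0.19 SE (adjusted p = 0.351), with a share of 9.34% ± 1.91 in G12D tumours and 13.0% ± 1.96 in WT tumours (SD, n = 6 each). Thus the level of 1 arm passed the test, and the difference between the arms did not.

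The other 3 arms with a small unadjusted p had higher means in G12D tumours. miR-17-3p, from the miR-17-92 cluster that Myc drives, had 74.7, 98.1 and 159 in G12D tumours, against 37.3, 78.04 and 107 in WT tumours (lowest, median, highest). The groups overlapped, and the log2 difference was 0.55 ± 0.18 SE (adjusted p = 0.114, limma). The DESeq2 fit on recovered reads called it (log2 difference 0.55, adjusted p = 0.0487), so that 1 lower arm rose and 1, miR-148a-5p, fell. Of all 596 miRNAs listed, 5.2% were called (1.85% higher, 3.36% lower). This share counts any miRNA without an adjusted p as not called. In the authors' deposited table miR-17-3p had a log2 fold change of 0.53 (adjusted p = 0.0487) and miR-148a-5p one of -0.86 (adjusted p = 6.84e-05). That table rests on the same libraries and, like the DESeq2 fit here, calls 31 miRNAs. The 2 results are therefore not independent of each other. miR-151-5p had 26.7, 47.1 and 72.8 in G12D tumours, against 14.5, 25.0 and 45.7 in WT tumours, a log2 difference of 0.77 ± 0.27 SE (adjusted p = 0.137, limma). miR-18a-3p averaged 349 ± 55.2 in G12D tumours and 270.1 ± 77.8 in WT tumours (SD, n = 6 each; log2 difference 0.40 ± 0.16 SE, adjusted p = 0.201, limma).

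**Figure D3:**
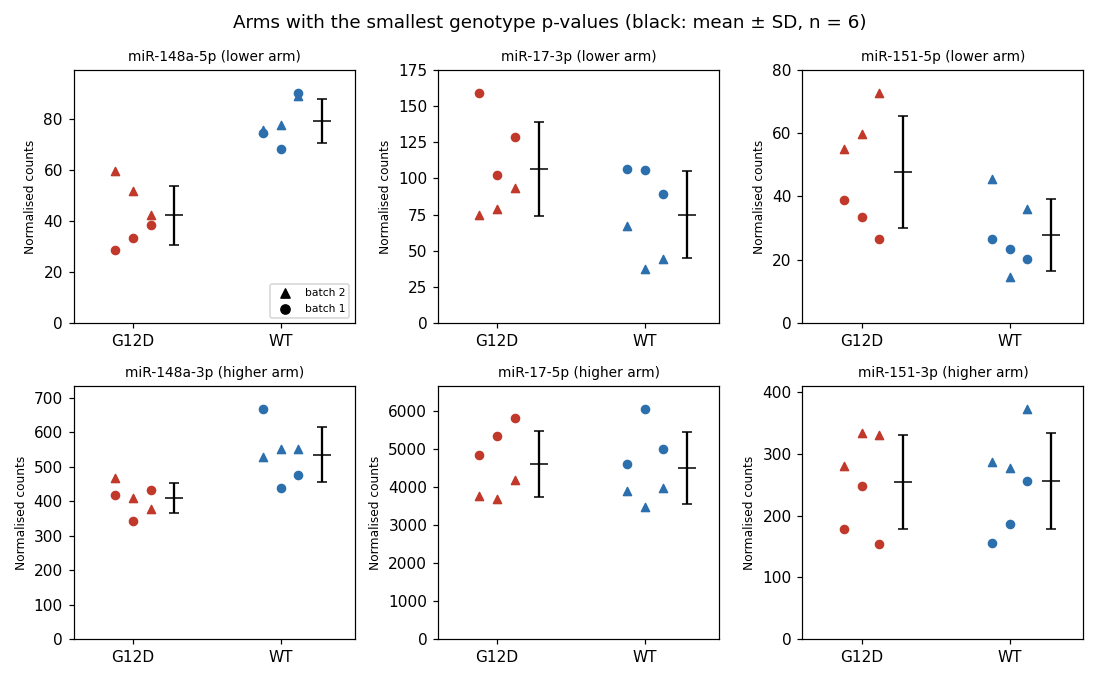
Normalised counts (y axes) of the lower arms miR-148a-5p, miR-17-3p and miR-151-5p (top row) and of their partners (bottom row) in 6 G12D and 6 WT tumours, triangles for batch 2 and circles for batch 1, with mean ± SD in black. All 6 G12D tumours lie below all 6 WT tumours for miR-148a-5p, at 28.6 to 59.5 in G12D against 68.4 to 90.3 in WT, and the groups overlap in the other panels.

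Of the 72 partners of the lower arms, 2 were higher and 1 was lower in G12D tumours. This share of 4.17% was close to the 3.87% called among all 284 miRNAs tested (1.76% higher, 2.11% lower). The lower arms of the called partners did not pass or were too low to test. miR-33-5p, which is hosted by Srebf2 and represses cholesterol export, averaged 603 ± 74.5 in G12D tumours and 403 ± 57.7 in WT tumours (SD, n = 6 each). Its lower arm miR-33-3p averaged 27.3 ± 4.87 in G12D tumours and 21.8 ± 8.35 in WT tumours (adjusted p = 0.335, limma). miR-23a-3p averaged 2755 ± 649 in G12D tumours and 1895 ± 134 in WT tumours, beside a lower arm of 1.80 ± 1.41 in G12D tumours and 1.82 ± 0.897 in WT tumours, too low to test. miR-146b-5p, which belongs with the blood cell markers, averaged 2523 ± 521 in G12D tumours and 3708 ± 920.1 in WT tumours, and its lower arm was among those near 0.

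No arm ratio was called between genotypes. Among the 61 hairpins with both arms at a mean of at least 10, 0 ratios were called (0% of 61), and 0 of the 47 lower arms examined here, by limma; the smallest adjusted p was 0.351. An edgeR model of both arms on the recovered reads also called 0, and an unadjusted p under 0.05 was reached by 3 arms in limma and 4 in edgeR. Those in limma were miR-148a-5p, miR-17-3p (0.52 ± 0.19 SE) and miR-151-5p (0.78 ± 0.27 SE). The median log2 difference of the ratio was 0.04 for the 47 arms and for all 61 hairpins, with a median SE of 0.24. The genotype difference of a ratio did not pass a test of dependence on batch for any hairpin (0 of 61, 0% called; smallest adjusted p = 0.485, limma), and 2 lower arms had an unadjusted p under 0.05. Over all 72 hairpins, lower arms held 3.96% ± 0.711 of the counts of both arms in G12D tumours and 3.95% ± 0.521 in WT tumours (SD, n = 6 each).

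The arm ratios differed mainly by batch. The share of counts in lower arms was 4.33% to 4.73% in batch 2 and 2.96% to 3.76% in batch 1, without overlap and in both genotypes. In the test of single ratios, 24 of 47 lower arms were called, 19 with a higher ratio in batch 2 and 5 with a lower one, against 42.6% of the 61 hairpins tested (32.8% higher, 9.84% lower). The levels of all miRNAs moved with batch as well, with 27.1% of 284 called (13.7% higher, 13.4% lower). Of 47 lower-arm levels, 8 were called higher and 5 lower in batch 2, and of 72 partner levels, 9 higher and 21 lower. Batch 2 libraries were also deeper, with 429993 to 471587 recovered reads against 289462 to 362070 in batch 1, and depth and batch cannot be told apart.

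Of the 24 ratios called, 11 were called in all 12 fits that each left out 1 tumour. Among the 19 higher in batch 2, the lower-arm level alone was called in 4, the partner level alone in 6, both in 2 and neither in 7. The gut epithelial hairpins belonged to those where the partner differed. miR-200b-3p averaged 7477 ± 267 in batch 2 and 12876 ± 2234 in batch 1, while miR-200b-5p averaged 836 ± 51.8 in batch 2 and 868 ± 91.5 in batch 1 (SD, n = 6 each). The share of miR-200b-5p was 10.1% ± 0.303 in batch 2 and 6.45% ± 1.23 in batch 1, and the log2 ratio differed by 0.72 ± 0.12 SE (adjusted p = 0.000599, limma). miR-141-5p likewise averaged 1542 ± 84.0 in batch 2 and 1476 ± 182 in batch 1, beside miR-141-3p at 5545 ± 326 in batch 2 and 8184 ± 726 in batch 1 (ratio 0.63 ± 0.11 SE, adjusted p = 0.000662). The third of these arms, miR-200a-5p, did not pass (0.20 ± 0.09 SE, adjusted p = 0.0873). Summed gut epithelial markers, these partners included, were 68988 to 73009 in batch 2 and 83283 to 108468 in batch 1. The normalised counts of all listed miRNAs together were lower in batch 2 as well, 323504 to 369360 against 382025 to 475546 in batch 1. The levels of markers and partners by batch were not scaled to these totals. The part of the markers in the ratios was not tested.

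In miR-425, miR-324, miR-106b and miR-423 the level of the lower arm was itself called by batch. miR-425-3p had a lowest, median and highest level of 73.5, 109.6 and 134 in batch 2, against 31.1, 46.6 and 57.1 in batch 1, with no overlap. Its partner miR-425-5p averaged 4923 ± 472 in batch 2 and 4839 ± 469 in batch 1 (SD, n = 6 each), and the log2 ratio differed by 1.18 ± 0.19 SE (adjusted p = 0.000599, limma). miR-324-5p had 27.0, 36.4 and 44.6 in batch 2, against 8.89, 10.7 and 18.3 in batch 1 (ratio 1.13 ± 0.25 SE, adjusted p = 0.00333). Both its arms were higher in batch 2, miR-324-5p by 1.56 and its partner miR-324-3p by 0.43 on the log2 scale (adjusted p = 0.000723 and 0.0246, limma). For miR-106b, hosted by the replication gene Mcm7 with miR-93, both arms moved in opposite directions. miR-106b-3p averaged 568 ± 70.2 in batch 2 and 419 ± 60.8 in batch 1, and miR-106b-5p averaged 1214 ± 345 in batch 2 and 2006 ± 410.2 in batch 1 (ratio 1.19 ± 0.21 SE, adjusted p = 0.000662). For miR-423-5p the ratio differed by 1.09 ± 0.28 SE (adjusted p = 0.00906, limma). miR-125a-3p, at a mean of 14.0, had the largest estimate of the ratio (1.24 ± 0.39 SE, adjusted p = 0.0241, and 0.0563 without WT 2). The level of neither of its arms passed the test by batch (0.92 for miR-125a-3p, adjusted p = 0.173; -0.31 for miR-125a-5p, adjusted p = 0.622).

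The 5 ratios lower in batch 2 included miR-139-5p (-0.87 ± 0.16 SE, adjusted p = 0.000739, limma) and miR-143-3p (-0.91 ± 0.19 SE, adjusted p = 0.00202), from the endothelial and smooth muscle lists. Summed endothelial markers, miR-139 included, were 703 to 885 in batch 2 and 410.2 to 643 in batch 1, and their part in the ratio was not tested. The sum holds only miR-126a and miR-139, whose arms did not move alike. On the log2 scale miR-126a-3p and miR-126a-5p stood 1.66 and 1.80 higher in batch 2. miR-139-3p stood 0.55 higher, and miR-139-5p differed by -0.31 without passing the test (adjusted p = 0.183, limma). miR-130b-5p had 12.2, 34.0 and 56.6 in batch 2, against 38.5, 51.9 and 72.5 in batch 1 (lowest, median, highest; ratio -1.11 ± 0.31 SE, adjusted p = 0.0124). miR-192-3p, from an epithelial hairpin, had 3.81, 19.3 and 24.5 in batch 2, against 22.6, 43.8 and 51.6 in batch 1 (ratio -1.05 ± 0.36 SE, adjusted p = 0.0351). miR-30e-3p had 4.57, 16.3 and 25.6 in batch 2, against 29.8, 34.3 and 63.7 in batch 1 (ratio -1.01 ± 0.34 SE, adjusted p = 0.0347). The lowest batch 2 values of these 3 arms were all in WT 5. Without WT 5 the ratios differed by -0.86 for miR-130b-5p (adjusted p = 0.0139, limma), -0.72 for miR-192-3p and -0.71 for miR-30e-3p (both adjusted p = 0.0474). WT 6 held the next lowest batch 2 ratio for each of the 3 arms, with miR-130b-5p at 13.5 and miR-192-3p at 9.26. No fit of the batch difference left out both tumours. Over the 12 fits that each left out 1 tumour, miR-130b-5p was called in all 12, but miR-192-3p and miR-30e-3p in 6 each, with the highest adjusted p without WT 1 (0.0747 for miR-192-3p and 0.0723 for miR-30e-3p). miR-30e-3p and miR-30a-3p share a seed and most of their sequence, so reads could be divided between them and their values are uncertain.

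Base composition was set beside the batch differences. Of the hairpins with both sequences, the lower arm had the higher GC content in 12 of 17 with a ratio higher in batch 2. It did so in 2 of 4 with a lower ratio and in 14 of 20 not called. The median difference was 9.09, 1.19 and 4.55 percentage points in these 3 groups, and 4.55 over all 41 hairpins. The part of GC content in the batch difference was not tested.

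**Figure D4:**
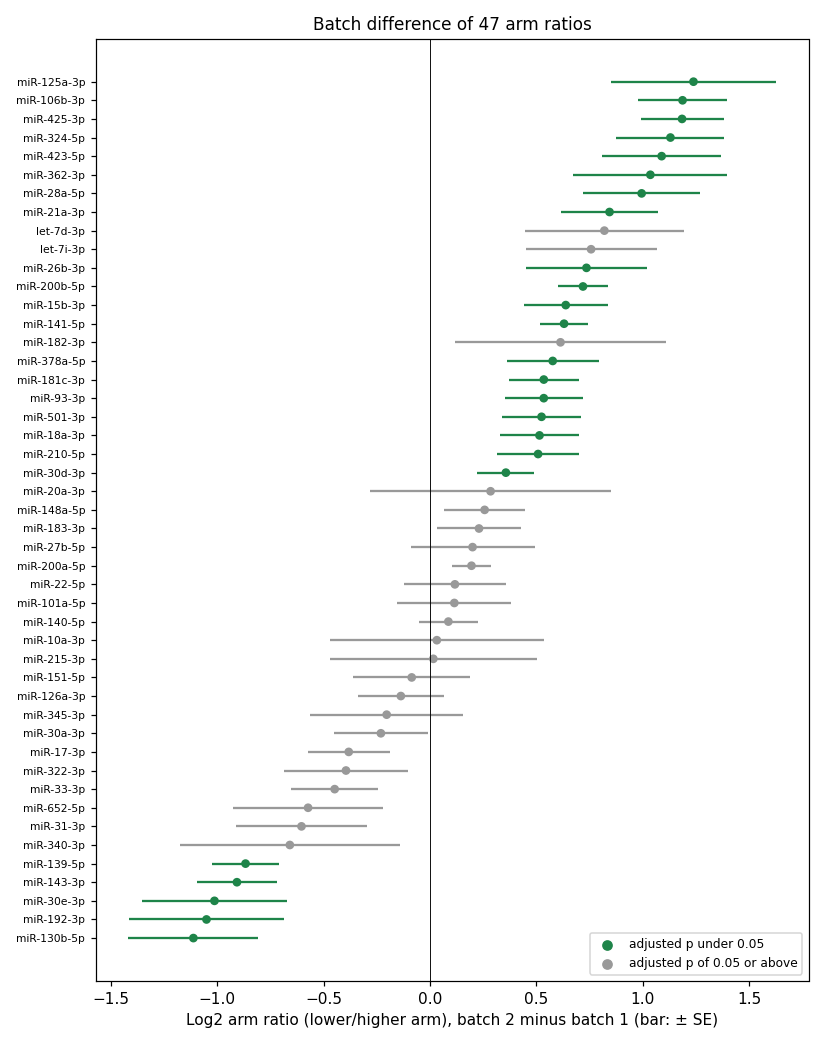
Log2 difference of the ratio of lower to higher arm between batch 2 and batch 1 (x axis, points with ± SE) for the 47 lower arms tested, green where the adjusted p from limma was under 0.05. The 24 green points include 19 right of 0, up to 1.24 for miR-125a-3p, and 5 left of 0, down to -1.11 for miR-130b-5p.

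Lower arms from neighbouring hairpins, within 10 kb on 1 strand, could have very different shares. In the cluster on chromosome 6 with a span of 477 bases, miR-141-5p took 18.02% of its hairpin and miR-200c-5p 0.0449%. In the miR-17-92 cluster on chromosome 14, miR-18a-3p took 19.0%, miR-17-3p 1.95%, miR-20a-3p 0.168% and miR-19a-5p 0.0174%. In the miR-183 cluster on chromosome 6, known from sensory cells and raised in many cancers, miR-183-3p took 22.5%, miR-182-3p 1.99% and miR-96-3p 0.162%. On chromosome 5 miR-106b-3p took 23.5% and miR-93-3p 1.65%, and on chromosome 9 miR-425-3p took 1.54% and miR-191-3p 0.0201%. On chromosome 4 the shares were closer, 21.6% for miR-200a-5p and 7.73% for miR-200b-5p. Of the 63 hairpins with a hairpin span in RefSeq, found through the entry of either arm, 19 fell into 8 such groups. The hairpins without a span were not placed here, among them miR-15a, miR-181c and miR-28a, whose arms have positions.

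**Figure D5:**
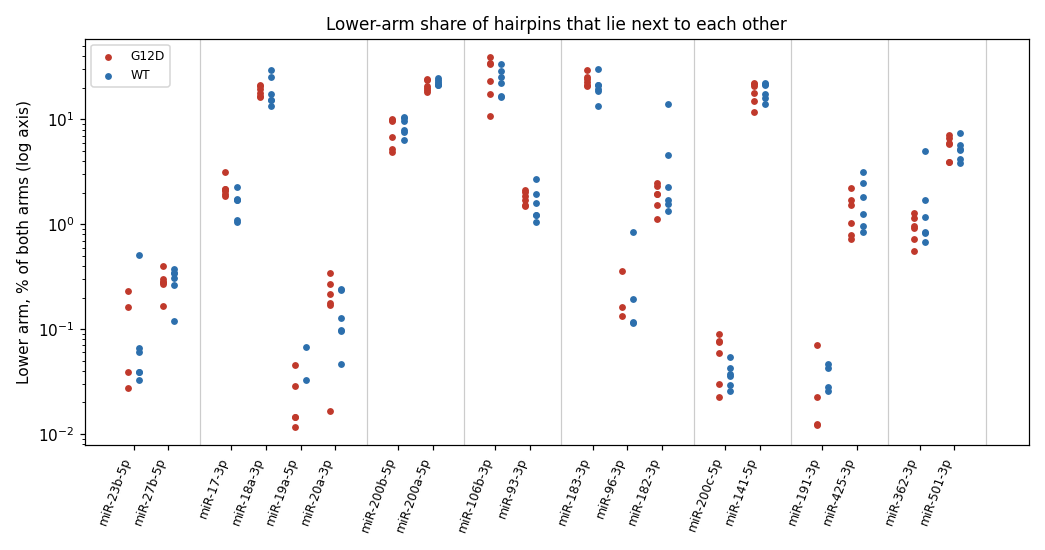
Share of the lower arm in the counts of both arms (y axis, percent, log scale) for 19 hairpins in 8 groups of neighbours, divided by vertical lines, with 1 point per tumour, G12D left and WT right; tumours at 0 are not drawn. miR-141-5p and miR-200c-5p, whose hairpins lie next to each other, stand at 18.02% and 0.0449% by their means.

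Of the 64 lower arms with a position, 31 lay within the span of a protein-coding gene, such as miR-106b-3p in Mcm7, miR-33-3p in Srebf2, miR-126a-3p in Egfl7 and miR-21a-3p in Vmp1. Another 13 lay within the span of a noncoding gene only, and 20 in neither.

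Families and other groups of hairpins were described by their counts, to be read against the 32.8% of all 61 hairpins with a ratio called higher in batch 2, the 9.84% called lower and the 0% called between genotypes; for levels between genotypes, 3.87% of 284 miRNAs were called. Of the 4 let-7 lower arms, 2 were tested and neither their level between genotypes nor their ratio passed. Of 6 in the miR-17-92 and related clusters, 5 were tested, with 0 called between genotypes and 3 ratios higher in batch 2 (miR-106b-3p, miR-18a-3p and miR-93-3p). With 1 tumour left out in turn, miR-106b-3p was called in 12 of 12 fits, and miR-18a-3p and miR-93-3p in 4 of 12 each. The miR-200 family had 3 of 4 tested, with 0 called between genotypes and 2 ratios higher in batch 2. The miR-30 family had 3 of 4 tested, with miR-30d-3p higher (called in 3 of 12 such fits) and miR-30e-3p lower (6 of 12) in batch 2. Of 5 intestinal epithelial arms 3 were tested, led by miR-192-3p at 28.5 normalised counts, with 1 ratio lower in batch 2. Of 7 oncogene-associated arms 5 were tested, led by miR-183-3p, with 2 ratios higher in batch 2 (miR-21a-3p, called in 12 of 12 such fits, and miR-210-5p, called in 3 of 12). Of 7 tumour suppressor arms 3 were tested, led by miR-15b-3p at 91.8, with 1 ratio higher. Of 3 arms of the miR-23-27-24 clusters, miR-27b-5p at 22.7 was tested and did not pass. Neither blood cell arm reached the level for a test, the higher being miR-142a-5p at 2.29, and no hairpin of the Dlk1-Dio3 cluster had a lower arm in the set. Among 24 hairpins often reported to load both arms, 14 gave a lower arm and 12 were tested, with 0 called between genotypes and 5 ratios higher and 1 lower in batch 2, a share close to the 42.6% of all 61 hairpins called in either direction.

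Among the lower arms with a sequence, few shared a seed. miR-200a-5p and miR-200b-5p together averaged 2851 normalised counts, and miR-30a-3p and miR-30e-3p together 56.3. The authors' peak annotation names miR-30d-3p in the same family as this last pair; no sequence was matched to it, and its 226 normalised counts are not in that sum. miR-28a-5p averaged 99.2, and miR-708-5p, which has the same seed, averaged 329.8. miR-148a-5p averaged 60.8, and miR-148b-5p, also of the same seed, 19.1. The authors' annotation of 7585 Ago2 peaks on mRNA lists seed matches by family name. To these families 16 lower arms were matched by name and not by sequence. The letter after the number was ignored for miR-21a-3p, miR-106b-3p, miR-18a-3p and miR-28a-5p. A match of bases 2 to 8 stood in 163 peaks (2.15%) for the miR-21-3p family, 65 for miR-141-5p, 65 for miR-423-5p, 60 for the miR-30a/d/e-3p family and 52 for the family of miR-28-5p. It stood in 44 peaks for miR-139-5p, 32 for miR-140-5p, 16 for miR-200ab-5p, 13 for miR-183-3p, 8 for miR-106-3p and 5 for let-7d-3p. The median was 44 peaks per family over the 13 families of these 16 lower arms. It was 42 over the families of 65 partners, among them 380 for miR-200-3p/429-3p and 684 for let-7-5p/miR-98-5p. The remaining lower arms had no family there, so these medians do not compare all 72 lower arms with their partners. A seed match does not say which miRNA was bound at a peak. For comparison of matches with level, miR-200a-5p averaged 1999 normalised counts beside 16 peaks. miR-21a-3p averaged 78.8 beside 163 peaks of the miR-21-3p family, whose seed was not checked against its own.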

How the data were processed

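Ago2-bound miRNA was sequenced in 6 G12D and 6 WT tumours. The submitters' processing notes name DESeq2, STAR 2.5.2b and, as builds, GRCm38 and mm10, but no roles. Counter and miRNA annotation are not given in the sources used here. Deposited signal values are normalised counts, each a read count over its library's size factor, as the authors made them: 100% of values were whole multiples of 1 read within 0.001 reads. The authors' own comparison deposited log2 fold changes, their standard errors (entered as a score) and p-values. The deposited count per peak was not used in any value; only the seed names beside it were.

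The members, lists and tests were chosen with earlier results of these data known. The rule for named arms took those past a threshold between genotypes, close or crossing arms, the highest and lowest means, the largest and smallest ratio spread, the leading arm of each list, the strongest batch differences, and the pairs next to the threshold of 200. Arms such as miR-17-3p and miR-151-5p were named as having an unadjusted p under 0.05, after their values were seen. In R 4.3.3, levels were tested by limma 3.58.1 with a mean-variance trend, on log2 of the value plus 1, with a batch covariate, over the 284 miRNAs with a mean of at least 10. Ratios, log2 of (lower arm + 1) over (higher arm + 1), were tested over the 61 hairpins with both arms at 10 or more. Fold changes are on these scales, which understate changes of low arms. P-values were two-sided and Benjamini-Hochberg adjusted at 0.05. edgeR 4.0.16 and DESeq2 1.42.0 on recovered reads, other pseudocounts, filters, batch treatments and leaving out each tumour were alternatives. Fits were tested on simulated data. Sequences and positions are from RefSeq GRCm38.p6. Arms with locus numbers in the name of 1 strand only were not paired, and mRNA peaks and input libraries were not analysed here.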

Additional observations from a re-analysis of the deposited data

Results flagged for a closer look

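In 94 sets of 6 tumours (the ratios of 47 lower arms in each genotype), 4 held a tumour that stood far from the other 5, where chance gives about 4.7 at 1 in 20, and each was in a different library. The log2 ratio of miR-17-3p was -4.92 in G12D 1, while the other G12D tumours ranged between -5.69 and -5.47. The log2 ratio of miR-20a-3p was -11.68 in G12D 2, where 1.19 normalised counts correspond to 1 read, against -9.09 to -8.12 in the others. The log2 ratio of miR-27b-5p was -9.59 in WT 2, while the other WT tumours ranged between -8.48 and -8.00. The log2 ratio of miR-345-3p was -2.56 in G12D 3, with the arm at 141 normalised counts, where the remaining G12D tumours held -5.06 to -4.38. The rule flagged nothing in WT 5, although several of its shares stood apart from all other tumours. In WT 5 the share was 14.0% for miR-182-3p (at most 4.55% elsewhere) and 0.191% for miR-340-3p (at least 1.03% elsewhere). For let-7d-3p and miR-362-3p it was 79.7% and 5.00%, against at most 50.8% and 1.71% elsewhere. The nearest value of each of these arms was in WT 6, which also lay outside the remaining tumours. Those held at most 2.48% for miR-182-3p, 38.7% for let-7d-3p and 1.29% for miR-362-3p, and at least 2.09% for miR-340-3p.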

How the results depend on the processing

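Lower arms called between genotypes numbered 1 in the reported fit, 1 to 2 with 1 tumour left out (2 without G12D 3, which added miR-345-3p), 2 with DESeq2 on recovered reads (miR-17-3p added), and 0 in batch 2 alone or batch 1 alone, which hold 3 tumours per genotype. miR-148a-5p was called in every fit with 1 tumour left out (-1.003 to -0.84, highest adjusted p = 0.0360) and missed the threshold within batch 2 (adjusted p = 0.313) and batch 1 (0.0759). Ratios called by batch ranged from 12 to 25 with 1 tumour left out (24 reported): 12 without G12D 4 or WT 2 and 15 without WT 3. Hairpins with close arms numbered 7 at 3-fold in place of 4 at 2-fold. Ratios called between genotypes stayed at 0 in all alternatives run. With the replicate block, 1 lower arm was called for its level and 0 for its ratio; labels do not pair the numbers, and same-numbered deviations correlated between -0.36 and 0.30, with 5 of 12 libraries closest to their own number. No result reversed under the alternatives run. Depth limits the 25 arms under a mean of 10, which were not tested.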
